A study of Rattus norvegicus with 12 samples.

Results

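For thyroid hormone transport and action in the liver, 6 genes were listed: Serpina7, Ttr, Dio1, Thrsp, Thra and Thrb. They were chosen by a measured value, the higher signal of Serpina7 on high-fat diets in these same arrays, so the fat contrasts of the members are given as a description, with no test. A probe set counted as a member where the platform annotation gave it one of these symbols and no other. This rule found 9 of the 8740 tested probe sets, for 5 of the 6 genes: 1 for Serpina7, 2 for Ttr, 2 for Dio1, 3 for Thra and 1 for Thrb. No probe set was listed for Thrsp alone, and Thrsp was not analysed here.

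The samples were 12 arrays of liver RNA from male Sprague-Dawley rats, 3 arrays for each of 4 diets: 70% corn oil, 5% corn oil, 70% olive oil and 5% olive oil. All groups shared the same handling: rats of 150 g at the start were overfed by 17% of calories for 21 days by total enteral nutrition, the infusion of a liquid diet into the stomach, and the age is not given in the labels. The diets had equal calories, so less fat came with more carbohydrate, and fat and carbohydrate cannot be told apart. Each array held pooled RNA. How many rats went into a pool was not stated in the labels, and the p-values reflect variation among pools alone. No group was fed a standard diet in the arrays used here.

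Thyroxine made by the thyroid circulates bound to plasma proteins that the liver secretes. In the liver, deiodinase 1 converts it to the active hormone triiodothyronine or inactivates it. Triiodothyronine binds nuclear receptors, which pair with retinoid X receptors on DNA and set the transcription of genes of lipid and carbohydrate metabolism.

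The promoter of Serpina7 is printed because Serpina7 spanned the widest range of diet means among the members, 2.37 log2. The sequence runs from 250 bases before to 30 bases after the annotated transcript start on the minus strand of chrX:107457652-107457931 (RefSeq, GRCr8). Capitals mark the motifs found in it.
Serpina7 promoter: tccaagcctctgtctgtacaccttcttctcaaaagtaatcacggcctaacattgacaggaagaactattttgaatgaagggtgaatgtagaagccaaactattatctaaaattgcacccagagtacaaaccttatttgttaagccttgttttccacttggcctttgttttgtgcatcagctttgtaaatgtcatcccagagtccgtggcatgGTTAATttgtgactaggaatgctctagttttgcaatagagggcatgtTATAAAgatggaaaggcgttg
Motifs, 3 in all, were searched on both strands of windows from 250 bases before to 50 bases after each start. GTTAAT, a core of the binding site of the liver factor HNF1, began 38 bases before the Serpina7 start, at position -38, and its letters were in 7.45% of 33469 promoters. TATAAA, the TATA box, began 9 bases after the annotated start and was in 14.2% of promoters. AGGTCA, the core bound by thyroid hormone receptors, was in 16.2% of promoters and in none of the member windows. The Thrb window held ATTAAC, the reverse complement of GTTAAT, at -38. A match in letters is not a binding site.

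Each deposited value is the log2 difference of a probe set from its own median over the 12 arrays, so levels of different genes cannot be compared and no gene can be called absent. A difference of 1 is a 2-fold difference. The 3'/5' index, the mean difference between the 3' and 5' control probe sets of actin and GAPDH, was 0.71 ± 0.48 on 70% corn oil, 1.28 ± 0.28 on 5% corn oil, -0.35 ± 0.10 on 70% olive oil and -0.36 ± 0.06 on 5% olive oil (SD, n = 3). It ran from 0.16 to 1.5 on corn oil arrays and from -0.43 to -0.23 on olive oil arrays, without overlap, so oil and index cannot be told apart in a comparison of oils. Pool 3 of 5% olive oil stood apart in acute-phase genes, which were chosen after their values were seen. Lcn2, a secreted siderophore-binding protein, was at 6.19 there, the mean of 6 A2m probe sets was 1.88 and Lbp, which binds bacterial lipopolysaccharide, was at 2.05. Pool 3 of 70% olive oil had 2.80 for Lcn2, but 0.03 for A2m and -0.22 for Lbp. The other 10 arrays ran from -1.22 to 1.69 for Lcn2, -0.24 to 0.88 for A2m and -0.54 to 0.62 for Lbp. Some results of Serpina7, Ttr and Dio1 are also given without pool 3 of 5% olive oil. For the other genes the values without it are not given.

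Serpina7 encodes thyroxine-binding globulin, the plasma protein that binds thyroxine most tightly in humans. In rats, transthyretin and albumin carry most of it in the adult. On 70% corn oil the pools were at 0.88, 0.33 and 1.12, against -1.59, -1.15 and -2.03 on 5% corn oil. Every 70% pool lay above every 5% pool with corn oil, as in 8.51% of probe sets. On 70% olive oil the pools were at 0.82, 0.83 and -0.06, against -1.04, -0.86 and 0.06 on 5% olive oil. With olive oil the fat levels overlapped, through pool 3 of either diet.

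**Figure D1:**
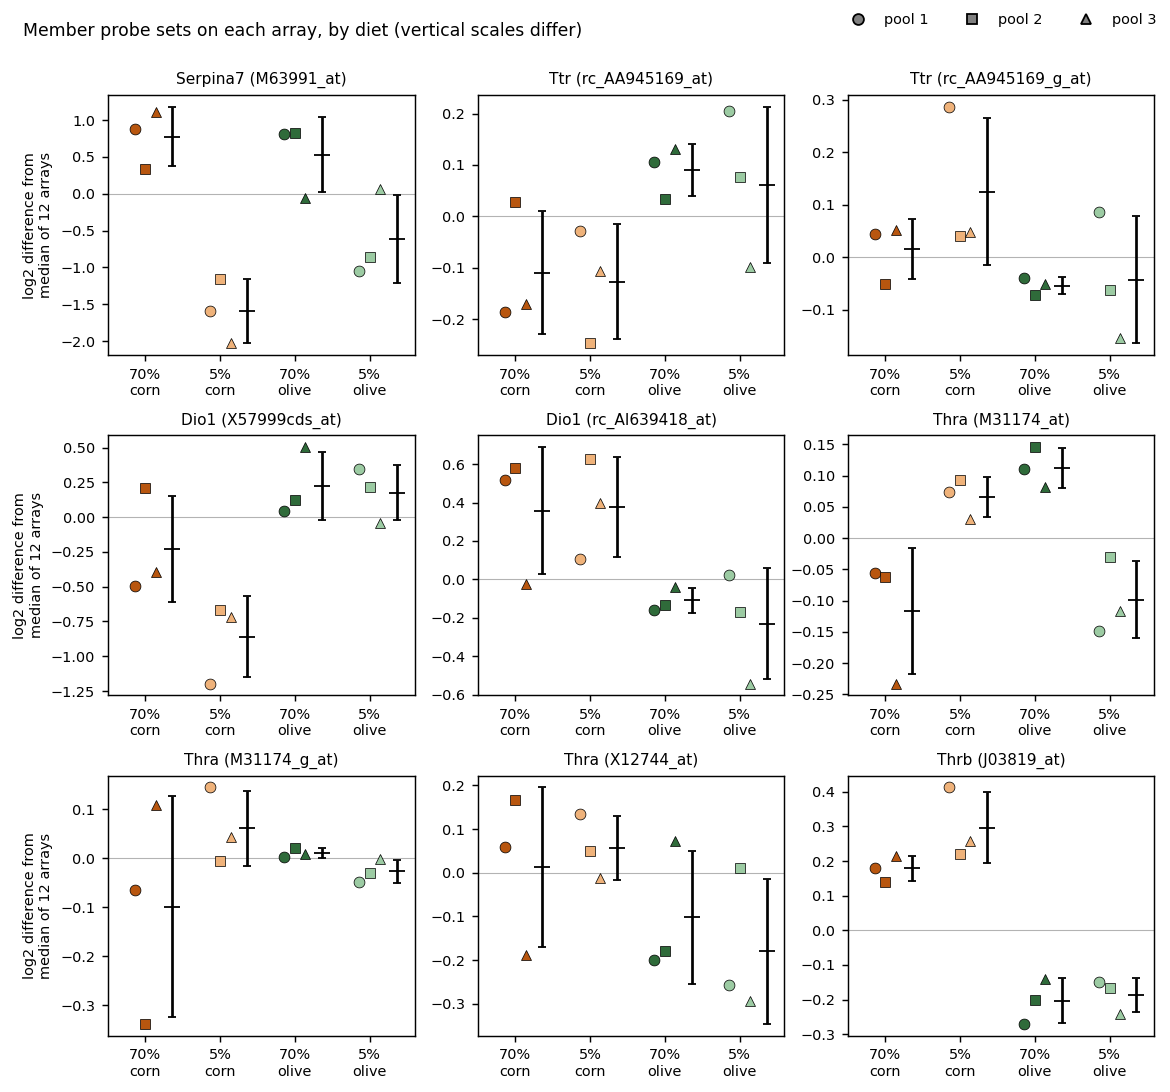
Log2 difference from the probe set's median (vertical axis) of the 9 member probe sets on every array, by diet; points are pools, and horizontal ticks with bars give the diet mean ± SD. Serpina7 has the widest spread of diets, with means between -1.59 and 0.78, while the diet means of both Ttr probe sets stay between -0.13 and 0.12.

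The mean of Serpina7 was 0.78 ± 0.40 on 70% corn oil and -1.59 ± 0.44 on 5% corn oil (SD, n = 3 each), a difference of 2.37 ± 0.33 (SE), or 5.16-fold. It was 0.53 ± 0.51 on 70% olive oil and -0.61 ± 0.59 on 5% olive oil (SD, n = 3 each), a difference of 1.14 ± 0.33, or 2.21-fold. These contrasts chose the gene and are a description. With corn oil 4 of the 8740 probe sets had a larger positive fat difference than Serpina7, and with olive oil 20 did. Of all probe sets, 2.11% passed the test for the corn oil fat contrast and 0.435% for the olive oil one; nothing is read from this for Serpina7. Without pool 3 of 5% olive oil the olive oil difference was 1.48, and without pool 3 of 70% olive oil it was 1.44. In bulk liver, fewer cells of a type and less RNA per cell cannot be told apart.

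The diet means of Serpina7 fell in the order 70% corn oil, 70% olive oil, 5% olive oil and 5% corn oil. The pools of neighbours overlapped for the first pair and for the second, and only 5% olive oil and 5% corn oil were separate. Of all probe sets, 16.2% had 5% corn oil wholly below 5% olive oil. Corn oil differed from olive oil by 0.25 ± 0.33 at 70% fat and by -0.98 ± 0.33 at 5% fat (SE, description). Without pool 3 of 5% olive oil the difference at 5% fat was -0.64 ± 0.31. Averaged over fat levels, corn oil minus olive oil was -0.36 ± 0.24 and did not pass the test in limma (adjusted p = 0.296). Without pool 3 of 5% olive oil it was -0.20 ± 0.21 (adjusted p = 0.567), and with the index as a covariate -1.46 ± 0.66, which did not pass either. The index was lower on 70% than on 5% corn oil by 0.56 and differed by 0.02 between the olive oil fat levels. With the index as a covariate the fat difference of Serpina7 was 2.82 ± 0.40 with corn oil and 1.13 ± 0.30 with olive oil.

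Ttr encodes transthyretin, which carries thyroxine and, with Rbp4, retinol. On rc_AA945169_at the 6 corn oil pools ran from -0.25 to 0.03 and the 6 olive oil pools from -0.10 to 0.20. On rc_AA945169_g_at they ran from -0.05 to 0.29 with corn oil and from -0.15 to 0.09 with olive oil. The oils overlapped on both probe sets. The fat differences were 0.02 ± 0.10 and -0.11 ± 0.09 with corn oil, and 0.03 ± 0.10 and -0.01 ± 0.09 with olive oil (SE, description, in the order of the probe sets above). Corn minus olive oil was -0.19 ± 0.07 (adjusted p = 0.066) on the first probe set and 0.12 ± 0.06 (adjusted p = 0.215) on the second, both from limma. Neither passed the test, and the first passed without pool 3 of 5% olive oil, at -0.23 ± 0.07 (adjusted p = 0.0352).

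**Figure D2:**
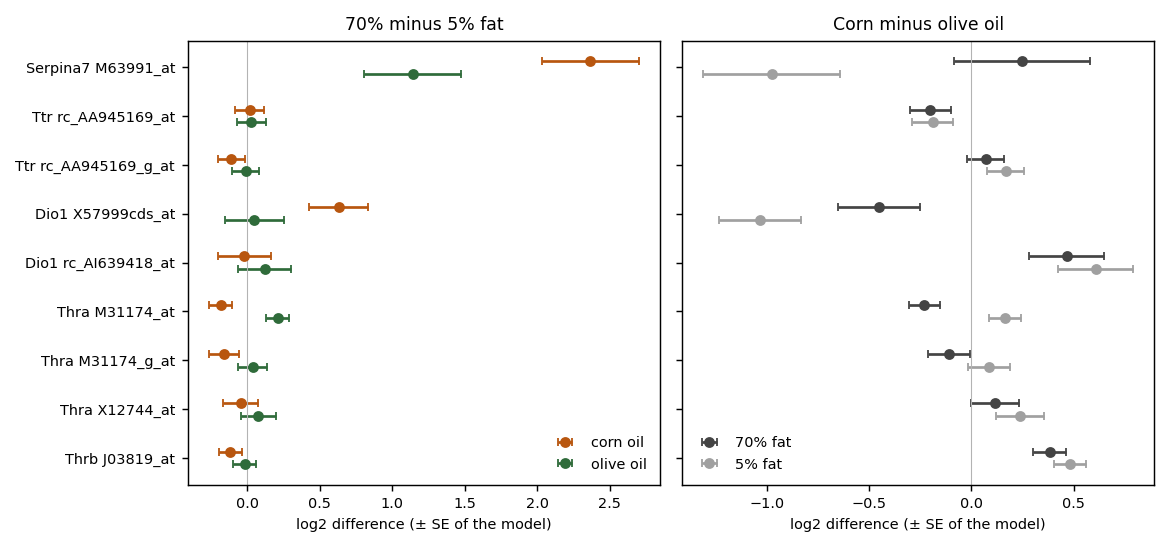
Log2 differences ± SE (horizontal axis) of the 9 member probe sets for 70% minus 5% fat with each oil (left) and for the oil difference, corn minus olive, within 70% and 5% fat (right). Serpina7 has the widest fat differences, 2.37 and 1.14; between oils Thrb and Dio1 rc_AI639418_at lie above 0 and Dio1 X57999cds_at below 0 at both fat levels.

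Dio1 encodes type 1 deiodinase, a selenoenzyme of the liver. Its probe sets disagreed in direction between the oils. On X57999cds_at the pools were at -0.49, 0.21 and -0.40 on 70% corn oil and at -1.20, -0.67 and -0.72 on 5% corn oil. They were at 0.04, 0.13 and 0.50 on 70% olive oil and at 0.35, 0.22 and -0.04 on 5% olive oil. Corn oil pools were lower than olive oil pools except pool 2 of 70% corn oil, whose index, 0.161, was the lowest of the corn oil arrays. On rc_AI639418_at the pools were at 0.52, 0.58 and -0.02 on 70% corn oil and at 0.11, 0.63 and 0.40 on 5% corn oil. They were at -0.16, -0.13 and -0.04 on 70% olive oil and at 0.02, -0.17 and -0.54 on 5% olive oil. Here the corn oil pools were the higher ones, and pool 3 of 70% corn oil, with an index of 1.03, overlapped the olive oil pools. Pool 2 of 70% corn oil was among the highest here, at 0.58. The part of the index in either exception was not tested.

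Averaged over fat levels, Dio1 was lower on corn than on olive oil by X57999cds_at (-0.74 ± 0.14, adjusted p = 0.0023) and higher by rc_AI639418_at (0.54 ± 0.13, adjusted p = 0.0093) in limma. At 5% fat the differences were -1.03 ± 0.20 (adjusted p = 0.0038) and 0.61 ± 0.18 (adjusted p = 0.0354). Without pool 3 of 5% olive oil they were -1.14 ± 0.22 (adjusted p = 0.0063) and 0.45 ± 0.19 (adjusted p = 0.133), so the second was no longer past the test. That call also ended without pool 2 or 3 of 5% corn oil, pool 2 of 5% olive oil, or pool 1 or 2 of 70% olive oil (0.48 to 0.64, adjusted p = 0.0505 to 0.134). At 70% fat they were -0.45 (adjusted p = 0.198) and 0.47 (adjusted p = 0.141), not past the test. The fat differences were 0.63 ± 0.20 and -0.02 ± 0.18 with corn oil and 0.05 ± 0.20 and 0.12 ± 0.18 with olive oil (description). No direction can be given for Dio1 as a gene: the mean of its probe sets was -0.10 for corn minus olive oil.

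The contrast between the probe sets of a gene was chosen after the values were seen and is given as a description, with no test. X57999cds_at minus rc_AI639418_at on the same array averaged -0.91 ± 0.43 on corn oil arrays and 0.37 ± 0.13 on olive oil arrays (SD, n = 6 each), a difference of -1.28. For the Ttr probe sets, rc_AA945169_at minus rc_AA945169_g_at averaged -0.19 ± 0.14 on corn oil and 0.12 ± 0.04 on olive oil (SD, n = 6 each). For the 3 Thra pairs, corn and olive oil arrays differed by -0.21 (M31174_at minus X12744_at), -0.19 (M31174_g_at minus X12744_at) and -0.02 (M31174_at minus M31174_g_at). Among all genes with more than 1 probe set, 97 of 1565 (6.2%) had probe sets past the test in opposite directions between the oils. The index was higher on corn oil by 1.35, and its part in these differences was not tested.

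**Figure D3:**
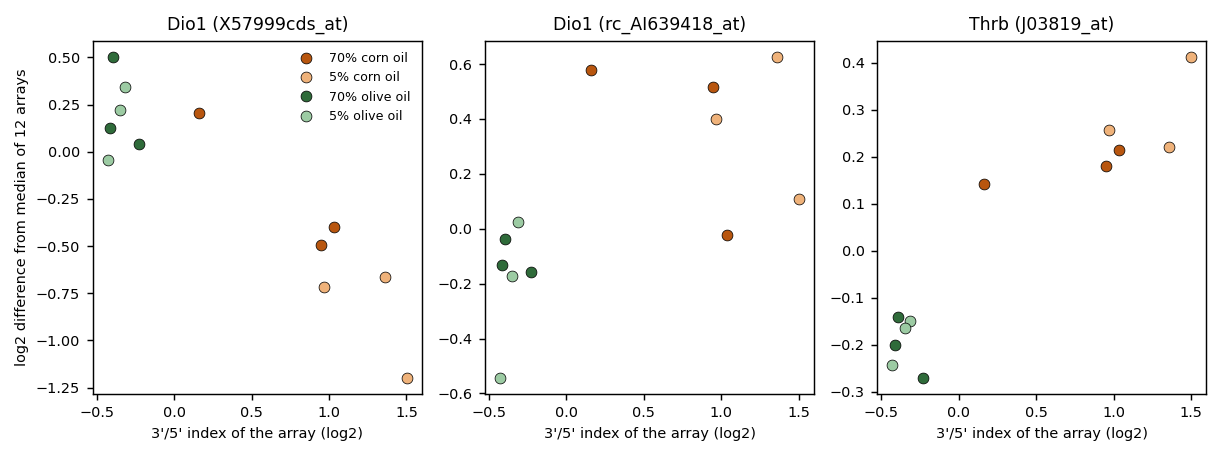
Log2 difference of both Dio1 probe sets and of Thrb from their median (vertical axis) against the 3'/5' index of the array (horizontal axis, log2), one point per pool, coloured by diet. The 6 olive oil arrays lie between -0.43 and -0.23 on the index and the 6 corn oil arrays between 0.16 and 1.5.

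Thrb encodes the main thyroid hormone receptor of the liver. On J03819_at the pools were at 0.18, 0.14 and 0.21 on 70% corn oil and at 0.41, 0.22 and 0.26 on 5% corn oil. They were at -0.27, -0.20 and -0.14 on 70% olive oil and at -0.15, -0.17 and -0.24 on 5% olive oil. All 6 corn oil pools lay above all 6 olive oil pools, as in 5.08% of probe sets. Corn minus olive oil was 0.43 ± 0.06 (adjusted p = 0.00019), or 1.35-fold, and it passed the test at 5% fat (0.48 ± 0.08, adjusted p = 0.0014) and at 70% fat (0.38 ± 0.08, adjusted p = 0.0132) in limma. Fat differences were -0.12 ± 0.08 with corn oil and -0.02 ± 0.08 with olive oil (description). The call at 70% fat ended without pool 1 of 70% olive oil (adjusted p = 0.0581) and in a fit of the 70% arrays alone (adjusted p = 0.0575).

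Thra encodes the other receptor gene, whose splice forms include one that does not bind the hormone. On M31174_at the pools were at -0.06, -0.06 and -0.23 on 70% corn oil and at 0.07, 0.09 and 0.03 on 5% corn oil. They were at 0.11, 0.15 and 0.08 on 70% olive oil and at -0.15, -0.03 and -0.12 on 5% olive oil. The fat levels did not overlap with either oil and lay in opposite directions, as in 1.45% of probe sets. The fat differences were -0.18 ± 0.08 with corn oil and 0.21 ± 0.08 with olive oil (description), and their difference of -0.39 ± 0.11 did not pass the test in limma (unadjusted p = 0.0037, adjusted p = 0.288). M31174_g_at ran from -0.34 to 0.14 over corn oil pools and from -0.05 to 0.02 over olive oil pools. X12744_at ran from -0.19 to 0.17 over corn oil pools and from -0.29 to 0.07 over olive oil pools. The fat differences of M31174_g_at were -0.16 ± 0.10 with corn oil and 0.04 ± 0.10 with olive oil (description). Those of X12744_at were -0.04 ± 0.12 and 0.08 ± 0.12. The difference between both fat contrasts was smaller than on M31174_at, -0.20 ± 0.15 and -0.12 ± 0.17, and did not pass in limma (adjusted p = 0.615 and 0.832). None of the 3 passed the test for corn minus olive oil (adjusted p = 0.719, 0.936 and 0.157).

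Over the members, 3 of 9 probe sets passed the test for the mean difference between oils, 2 higher and 1 lower on corn oil, against 24.3% of all probe sets (13.1% higher and 11.1% lower). Among the 8 probe sets other than Serpina7, 3 passed at 5% fat, where 19.5% of all did, and 1 passed at 70% fat, where 8.51% did. For the difference between both fat contrasts limma called 0 of 8, with 1 at an unadjusted p under 0.05, and 0 of all 8740 probe sets (0%), with 1028 at an unadjusted p under 0.05. With the index as a covariate 0 of 8740 probe sets passed for the mean oil contrast, so all member calls between oils ended. Thrb was then 0.31 ± 0.17, against 0.43 ± 0.06 without the covariate, and Dio1 X57999cds_at turned to 0.23 ± 0.33, against -0.74 ± 0.14. Dio1 rc_AI639418_at was larger with the covariate, 1.02 ± 0.38 against 0.54 ± 0.13, with a wider SE.

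The 5 probe sets with 1 symbol closest to Serpina7, by the root mean square difference over the 12 arrays, were those of Cpt1a (0.505), Eci1 (0.544 for rc_AI170568_s_at and 0.604 for D00729_g_at), Ech1 (0.577) and Prlr (0.577). Cpt1a brings long-chain fatty acids into mitochondria, Eci1 and Ech1 encode isomerases of the oxidation of unsaturated fatty acids, and Prlr encodes the prolactin receptor. Cpt1a had diet means of 0.24 on 70% corn oil, -1.18 on 5% corn oil, 0.39 on 70% olive oil and -0.17 on 5% olive oil. Dio1 X57999cds_at, the other member whose diet means spanned over 1 log2, lay closest to Azgp1 (0.141), Cand1 (0.146), Cops7a (0.157), Alas1 (0.162) and Gps1 (0.168). For comparison, the SD between arrays of a diet was 0.49 for Serpina7 and 0.29 for Dio1 X57999cds_at. In a check for duplicated arrays, the closest pair of arrays differed by a root mean square of 0.195 over all probe sets. That value compares arrays and is no yardstick for the distances between probe sets.

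Other genes of the pathway were tested as 1 value per gene, the mean of its probe sets, in lists chosen with earlier results of these data known. Of all genes, 2.53% passed the test for fat with corn oil, 0.549% for fat with olive oil and 21.9% for the mean of corn minus olive oil. The shares of higher and lower genes were 1.52% and 1.01%, 0.211% and 0.338%, and 11.9% and 9.95% in the same order. Of 5 other plasma carriers measured, 0 passed in either fat contrast, and 1 of 5 fell on corn relative to olive oil. That gene was Rbp4, which carries retinol (-0.53 ± 0.08, adjusted p = 0.00066), with probe sets from -1.11 to 0.03. Alb, serum albumin, differed by 0.18 ± 0.07 with corn oil fat (adjusted p = 0.193).

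Of 6 genes of hormone uptake, 0 passed in either fat contrast. The organic anion transporter Slco1a4, which takes up thyroid hormones, differed by 1.41 ± 0.30 with olive oil fat (adjusted p = 0.068) and by 0.90 ± 0.30 with corn oil fat (adjusted p = 0.129). The related Slco1a1 fell on corn relative to olive oil by 0.79 ± 0.16 (adjusted p = 0.0038), and Slc3a2, the heavy chain of amino acid transporters, fell by 0.43 ± 0.08 (adjusted p = 0.0023). Of 5 genes of hormone metabolism, 0 passed in any of these contrasts. Sult1a1, a sulfotransferase, differed by -0.51 ± 0.16 with corn oil fat (adjusted p = 0.107). Of 6 receptor partners, 0 passed in either fat contrast. Between the oils 1, the retinoid X receptor gene Rxrg, fell on corn relative to olive oil (-0.60 ± 0.08, adjusted p = 0.00032). Its 3 probe sets ran from -1.04 to -0.17. The other retinoid X receptor genes did not pass in limma: Rxra was at -0.20 ± 0.07 (adjusted p = 0.0563) and Rxrb at 0.01 ± 0.07 (adjusted p = 0.943).

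**Figure D4:**
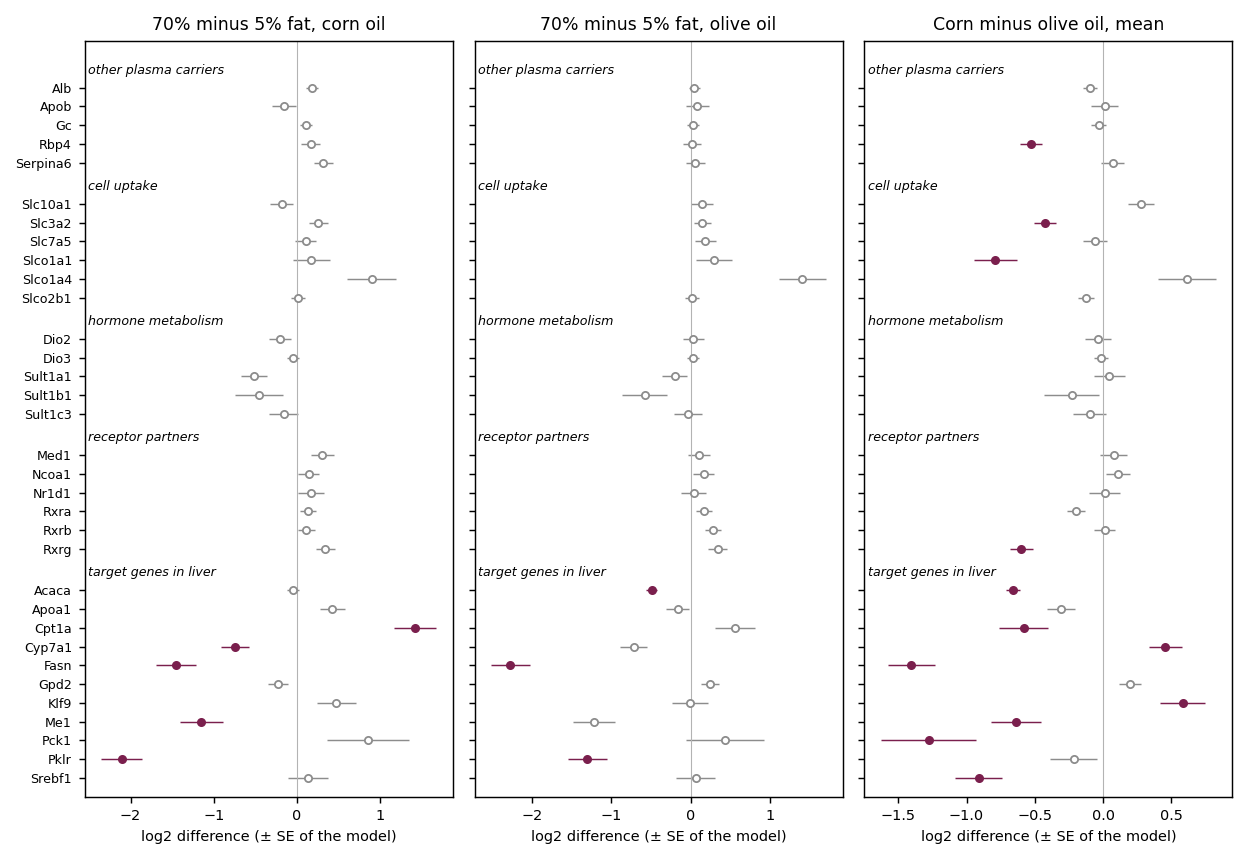
Log2 differences ± SE (horizontal axis) of the pathway genes other than the members, by list, for fat with corn oil, fat with olive oil and corn minus olive oil. Filled points passed the test in limma; with fat, only points in the group of target genes are filled.

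Of 11 known liver targets of the hormone, with corn oil 1 rose and 4 fell at 70% fat relative to 5% fat. Cpt1a rose by 1.42 ± 0.25 (adjusted p = 0.0124). Pklr, pyruvate kinase of glycolysis, fell by 2.11 ± 0.25 (adjusted p = 0.00093), Fasn, fatty acid synthase, fell by 1.45 ± 0.24 (adjusted p = 0.0092), and Me1, malic enzyme, fell by 1.15 ± 0.26 (adjusted p = 0.0405). The probe sets of Fasn ran from -2.63 to -0.28 in this contrast and those of Me1 from -1.88 to -0.24. The fourth was Cyp7a1, of bile acid synthesis, at -0.74 ± 0.17 (adjusted p = 0.043). With olive oil 0 rose and 3 fell. Fasn fell by 2.27 ± 0.24 (adjusted p = 0.00089), Pklr by 1.30 ± 0.25 (adjusted p = 0.0394) and Acaca, acetyl-CoA carboxylase, by 0.49 ± 0.07 (adjusted p = 0.0072). Me1 (-1.22 ± 0.26, adjusted p = 0.068) and Cyp7a1 (-0.72 ± 0.17, adjusted p = 0.132) did not pass with olive oil in limma. Their differences were near those with corn oil, and the difference between both fat contrasts did not pass (adjusted p = 0.963 and 0.983). The list median was -0.05 with corn oil and -0.17 with olive oil, beside -0.0019 and 0.026 over all genes. The call of Me1 was kept in 3 of 12 fits that left out 1 array, and that of Pklr with olive oil in 4 of 12.

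Between the oils, 2 of the 11 targets rose and 6 fell on corn relative to olive oil, with a list median of -0.58 beside 0.03 over all genes. Those that rose in limma were Klf9 (0.58 ± 0.16, adjusted p = 0.0225) and Cyp7a1 (0.45 ± 0.12, adjusted p = 0.0174). Fasn fell by 1.40 ± 0.17 (adjusted p = 0.00016), Pck1, of gluconeogenesis, by 1.28 ± 0.35 (adjusted p = 0.0199), Srebf1, a lipogenic transcription factor, by 0.91 ± 0.17 (adjusted p = 0.0026) and Acaca by 0.66 ± 0.05 (adjusted p = 2.9e-05). The probe sets of Fasn ran from -2.20 to -0.61 in this contrast. All these values share the index difference between the oils, and with the index as a covariate 0 of all genes passed. Acaca was then -0.80 and Fasn -1.05, while Srebf1 was -0.28 and Pck1 turned to 0.11. The call of Pck1 also ended without pool 2 of 5% olive oil.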

How the data were processed

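Liver RNA pools were hybridised to 12 Affymetrix rat arrays. The deposited log2 values were made with GCOS and RMA, per the submitters' processing notes, with no version; the table names no log base, and 2 was used. Every probe set had a median of 0 across the arrays, within 1e-06, so no filter on low values was possible, and signal over background cannot be judged. Array medians ran from -0.0268 to 0.0623; the number of arrays limits the precision. There were 0 columns of other samples.

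Of 8799 probe sets, 59 controls were left out and 8740 tested; 7006 had 1 symbol, 308 several and 1426 none. Symbols were taken from GRCr8 for 6985 of them, and 21 kept the older one.

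Tests used limma 3.58.1 in R 4.3.3: 1 mean per diet, a spread shared by all 12 arrays (8 residual degrees of freedom), eBayes, and two-sided p-values with Benjamini-Hochberg adjustment in each contrast over 8740 probe sets or 4736 genes, with a threshold of 0.05. No p is given for the fat contrasts of the members, nor for Serpina7 in the oil contrasts at one fat level or the interaction. The code was tested on simulated data.

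The members, the lists and the alternatives, the index among them, were chosen with earlier results of these data known. The text names every member probe set and, per list and contrast, up to 4 genes past the test with the largest change. Where none passed, up to 2 with the smallest p are named. So are the 5 probe sets most like a member whose diet means span over 1 log2. Of the genes under these rules a part is named. List genes named beyond the rules were Cyp7a1, Klf9, Rxra and Acta2. Same-numbered pools did not deviate together (mean r 0.010 over 18 pairs, from -0.194 to 0.232), so numbers were not taken as pairs. Alternatives were further quantile normalization, centring of arrays, trend and robust moderation, array weights, the pool number as a block, the compared groups alone, 1 value per gene, the index as a covariate and leaving out each array. The trend was fitted on means of the centred values, where no signal level is known, so it could not follow that level. Robust moderation without the trend was added later. For list genes the alternatives reported were limited, after their values had been seen, to the fat contrasts and the mean oil contrast.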

Additional observations from a re-analysis of the deposited data

How the results depend on the processing

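When the 3'/5' index entered as a covariate, 0 member probe sets passed for corn minus olive oil on average, at 5% fat or at 70% fat. At 70% fat, 2 members passed with array weights, 0 in a fit of the compared groups alone, and 0 to 2 when 1 array was left out. Leaving out 1 array gave 2 to 3 members at 5% fat and 3 to 4 on average. The pool number as a replicate block left the count of members past the test at 3 for the mean oil contrast. Signs turned with the index as a covariate for Ttr rc_AA945169_g_at (-0.14), Dio1 X57999cds_at (0.23 on average, 0.31 at 70% fat and 0.15 at 5% fat), Thra M31174_at (0.050), Col1a1 (-0.0077), Col1a2 (-0.070), Pck1 (0.11), Rbp4 (0.0034), Serpina1 (0.028), Serpina3m (0.33), Slc3a2 (0.035) and Slco1a1 (0.14). With 1 value per gene they turned for Ttr rc_AA945169_g_at (-0.038), Dio1 rc_AI639418_at (-0.10 on average and -0.21 at 5% fat), Dio1 X57999cds_at at 70% fat (0.0069) and for Thra M31174_at and M31174_g_at (0.044 each), because the mean pools probe sets that differ. Serpina7 turned to 0.073 for corn minus olive oil with further quantile normalization. Thra M31174_g_at ran from -0.063 to 0.049 when 1 array was left out, and was above 0 without pool 2 of either corn oil diet. Dio1 rc_AI639418_at at 5% fat also lost its call with further quantile normalization (0.59) and with each array centred (0.57). Ttr rc_AA945169_at passed on average with each array centred, with array weights and without pool 2 of 70% corn oil. The causes of the other turns were not tested. Beside leaving out arrays, 8 alternatives were run for the fat calls of target genes: with corn oil Pklr was kept in 8, Fasn in 6, Cpt1a in 5 and Me1 in 0, and with olive oil Fasn was kept in 8, Acaca in 7 and Pklr in 5. For Cyp7a1 such counts are not given. All probe sets past the test numbered 184 for fat with corn oil, and 51 with further quantile normalization, 40 with the index, 53 with the compared groups alone and 59 to 348 when 1 array was left out. With olive oil they numbered 38, and 98, 64 and 97 under the same settings, 22 with each array centred, 138 with array weights and 10 to 69 when 1 array was left out. At 70% fat they numbered 744 between oils, and 0 with the index, 334 with the compared groups alone and 311 to 1162 when 1 array was left out. At 5% fat they numbered 1704, and 0 with the index, 2632 with array weights and 1115 to 2065 when 1 array was left out, lowest without pool 2 of 5% olive oil. For the mean of the oil contrasts they numbered 2120, and 0 with the index. The fat difference of Serpina7 ran from 2.01 to 2.82 with corn oil and from 1.12 to 1.61 with olive oil over the settings. When 1 array was left out it ran from 2.15 to 2.59 and from 0.927 to 1.48. The gene was chosen by this difference on the same arrays, so its kept sign is a description and no support.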

Other observations

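Of 9 other liver serpins, the family of Serpina7, 0 passed the test in either fat contrast and 4 fell on corn relative to olive oil: Serpina3m (-0.55 ± 0.14, adjusted p = 0.012), Serpind1, heparin cofactor (-0.52 ± 0.09, adjusted p = 0.0011), Serping1, the C1 inhibitor (-0.33 ± 0.10, adjusted p = 0.0336), and Serpina1, alpha-1-antitrypsin (-0.19 ± 0.05, adjusted p = 0.0231). The 3 probe sets of Serpina1 ran from -0.57 to 0.14, so they differed in direction and the fall is that of their mean. These values are averages over fat levels. At 5% fat Serping1 was at -0.77 (adjusted p = 0.0034), Serpina1 at -0.31 (adjusted p = 0.0153), Serpind1 at -0.74 (adjusted p = 0.0016) and Serpina3m at -0.53 (adjusted p = 0.0792) in limma. At 70% fat none of them passed: they were at 0.11, -0.07, -0.29 and -0.57 in the same order (adjusted p = 0.73, 0.666, 0.176 and 0.0965). Serpina6, the corticosteroid carrier, differed by 0.32 ± 0.12 with corn oil fat (adjusted p = 0.163) and by 0.06 ± 0.12 with olive oil fat, both in limma. With corn oil fat its 2 probe sets were at -0.12 and 0.76. The call of Serping1 was kept in 5 of 12 fits that left out 1 array and that of Serpina1 in 8 of 12, while Serpina3m and Serpind1 were kept in 12; none of the 4 passed once the 3'/5' index was a covariate. The list median for corn minus olive oil was -0.22, beside 0.03 over all genes.

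Among cell type markers, 1 of 4 hepatocyte genes rose with corn oil fat, Cyp2e1 (1.08 ± 0.25, adjusted p = 0.0441), a call kept in 3 of 12 fits that left out 1 array. Between the oils, 0 of these 4 rose and 1, Serpina1, fell on corn relative to olive oil. The Serpina1 probe sets differed in direction, as given above. None of the 4 genes lay above 0, and their median was -0.24, beside 0.03 over all genes. Of 4 stellate cell markers, 2 collagen genes rose on corn relative to olive oil, Col1a2 (0.66 ± 0.09, adjusted p = 0.00045) and Col1a1 (0.44 ± 0.09, adjusted p = 0.0049), while Des differed by -0.05 ± 0.08 (adjusted p = 0.68) and Acta2 by -0.04 ± 0.12 (adjusted p = 0.846). Both marker lists stand beside the oil differences of Dio1 and Thrb, and their part in these was not tested. Of 2 macrophage and 3 thyroid follicle markers, 0 passed in the fat contrasts or between the oils on average.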
